A study of Homo sapiens with 9 samples.

Results

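Genes of fatty acid oxidation, ketone body metabolism and lipid droplets were followed in the human hepatocellular carcinoma line HepG2. A list of 43 genes was used, and 42 were measured, each by 1 transcript cluster of the Clariom S array, of 17687 named genes in all. They were found by their symbols in the platform annotation. PLIN4 was not analysed here. VDR+VitD cells received Ad-VDR, an adenovirus that carries the human vitamin D receptor (VDR), for 48 h and then 10 nM VitD (calcitriol) for 4 h. VDR cells received the same virus and the DMSO vehicle. Control cells (CONT) received the insertless virus Ad-C and vehicle. The 9 arrays came from 3 independent experiments, and each experiment supplied all 3 groups. Ad-VDR supplies the receptor from a viral vector, and all cells were of 1 tumour-derived line, which limits them as a model of hepatocytes.

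Long-chain fatty acids enter mitochondria bound to carnitine. CPT1A loads them at the outer membrane, the carrier SLC25A20 moves the acylcarnitine inward, and CPT2 returns the acyl group to coenzyme A. Acyl-CoA dehydrogenases, hydratases, hydroxyacyl-CoA dehydrogenases and thiolases then shorten the chain, and electron transfer flavoprotein passes the electrons on to the respiratory chain. Peroxisomes shorten very long chains by a parallel route, and the liver turns surplus acetyl-CoA into ketone bodies during fasting, a programme driven largely by the nuclear receptor PPARA. Fatty acids that are not burnt are stored as triglyceride in droplets coated with perilipins, and lipases release them again.

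Expression was read as log2 RMA values, where a difference of 1 means that the signal doubles. Array medians lay between 6.16 and 6.20. VDR averaged 17.50 ± 0.07 in VDR+VitD cells, 17.85 ± 0.04 in VDR cells and 6.35 ± 0.39 in CONT cells (SD, n = 3 each). Of the hepatocyte markers listed for a check of the label, 8 were measured. All 8 lay above the 96 percentile of gene brightness (lowest 96.8), while 6 fat cell markers lay between the 5.91 and 40.8 percentiles. The 10 markers of other liver cells lay between the 6.08 and 93.7 percentiles (median 32.4). The brightest of these were KRT19 (93.7), ACTA2 (87.5) and CD68 (87.05). The means of the hepatocyte marker values were 16.12 to 16.13 in VDR+VitD arrays, 16.04 to 16.19 in VDR arrays and 15.92 to 16.05 in CONT arrays, with no marker called. Of 10 markers of other liver cells, 1 was called, KRT19 of bile duct cells, which averaged 12.04 ± 0.33 in VDR+VitD cells and 13.04 ± 0.04 in CONT cells (SD, n = 3 each, adjusted p = 9.22e-04), and its part in the results was not tested. Among the members, CYP4A11 (0.88 percentile), PDK4 (10.2 percentile), VNN1 (17.2 percentile) and PLIN1 (22.2 percentile) were dim, which limits what a missing change in them shows. Calls came from a limma fit over all 9 arrays and needed a Benjamini-Hochberg adjusted p under 0.05 over all 17687 genes as well as a change of more than 1.5-fold, upward or downward. The number of arrays limits the precision of every value, and in such bulk RNA a lower value in fewer cells and less RNA per cell cannot be told apart.

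VitD changed 3 of the 42 members in cells with Ad-VDR. CPT1A, the gatekeeper of mitochondrial fatty acid entry, and CREB3L3, a membrane-bound transcription factor of the fasting liver, were higher, and CPT2 was lower. This is 7.14% of the members, against 4.16% of all genes (2.62% called higher and 1.53% called lower). The other 39 members did not pass the test.

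The stretches around the start sites of the 3 called genes are shown because these genes are the ones that moved with the ligand. VDR acts as a heterodimer with the retinoid X receptor, typically on 2 half-sites spaced by 3 bases (DR3), and PPARA on 2 half-sites spaced by 1 base (DR1). Each stretch holds 250 bases before and 50 after the start listed by RefSeq (GRCh38.p14), is written 5′ to 3′ along the gene, and has half-site letters in capitals. CPT1A lies at chr11:68844228-68844527 on the minus strand, CREB3L3 at chr19:4153381-4153680 on the plus strand and CPT2 at chr1:53196574-53196873 on the plus strand.
CPT1A: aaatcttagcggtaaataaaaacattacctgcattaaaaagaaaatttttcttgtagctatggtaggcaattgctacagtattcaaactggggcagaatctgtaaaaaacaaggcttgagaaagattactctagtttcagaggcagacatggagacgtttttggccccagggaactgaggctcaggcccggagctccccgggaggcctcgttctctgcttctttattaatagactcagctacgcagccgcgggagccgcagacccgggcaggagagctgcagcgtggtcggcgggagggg
CREB3L3: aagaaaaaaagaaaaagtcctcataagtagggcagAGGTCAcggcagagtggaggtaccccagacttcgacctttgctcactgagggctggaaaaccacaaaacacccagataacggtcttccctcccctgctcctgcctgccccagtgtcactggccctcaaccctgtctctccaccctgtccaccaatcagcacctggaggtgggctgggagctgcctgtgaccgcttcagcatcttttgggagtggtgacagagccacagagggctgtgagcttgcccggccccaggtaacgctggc
CPT2: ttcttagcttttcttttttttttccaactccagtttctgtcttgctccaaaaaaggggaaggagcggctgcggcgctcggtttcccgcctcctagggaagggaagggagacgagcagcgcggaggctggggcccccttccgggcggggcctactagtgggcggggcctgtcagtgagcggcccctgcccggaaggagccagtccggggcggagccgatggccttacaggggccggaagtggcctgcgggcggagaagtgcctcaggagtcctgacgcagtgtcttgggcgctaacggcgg

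The half-site was searched on both strands as AGGTCA, further as AGTTCA, further as GGGTCA and further as GGTTCA, and DR3 and DR1 as any 2 of these in the same orientation with 3 or 1 bases between them. CREB3L3 held 1 half-site, which begins at position -215 from the start, and the CPT1A and CPT2 stretches held none. A half-site was found in 38.6% of 35116 such stretches in the RefSeq table, and in 15 of the 41 that belong to the 33 measured members with an entry. No member stretch held DR3 or DR1, which 0.074% and 0.131% of all stretches held. At such rates hardly any match could be expected in 41 stretches, so this absence says little about the members. All matches are of letters in a short window, and no binding was measured.

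The carnitine shuttle held opposite changes. CPT1A had log2 values of 7.41, 7.30 and 7.17 in VDR+VitD cells of experiments 1 to 3, against 6.55, 6.27 and 6.35 in VDR cells. In CONT cells it had 6.09, 6.43 and 6.26. All 3 VDR+VitD arrays lay above all 6 others. With VitD it rose 1.87-fold over VDR cells (log2 fold change 0.90, standard error (SE) 0.14, adjusted p = 7.83e-04), and by 0.86, 1.03 and 0.82 within the 3 experiments. It was called without any single array of the comparison as well (adjusted p between 0.0017 and 0.0067).

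CPT2, the inner-membrane partner of CPT1A, had log2 values of 7.66, 7.40 and 7.82 in VDR+VitD cells, against 8.44, 8.01 and 8.51 in VDR cells. In CONT cells it had 8.09, 7.74 and 8.05. VDR+VitD arrays lay below all VDR arrays, while they overlapped with CONT arrays. In log2 units CPT2 fell by 0.69 with VitD (SE 0.17, limma adjusted p = 0.024), and by 0.78, 0.61 and 0.69 within the experiments. Against CONT cells, the difference was -0.33 in VDR+VitD cells (adjusted p = 0.341) and 0.36 in VDR cells (adjusted p = 0.520), and neither was called. Leaving out VDR+VitD replicate 1 or 2, or VDR replicate 1 or 3, ended the call with VitD (adjusted p 0.0696 to 0.124).

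SLC25A20, the carnitine-acylcarnitine carrier between both transferases, had log2 values of 5.93, 6.38 and 6.06 in VDR+VitD cells, against 5.39, 6.01 and 5.28 in VDR cells and 5.24, 5.46 and 5.34 in CONT cells. VDR replicate 2 lay within the range of the VDR+VitD arrays, and every other VDR and CONT array lay below it. The difference between VDR+VitD and VDR cells was 0.56 (95% interval 0.17 to 0.96, adjusted p = 0.114), with 0.54, 0.37 and 0.78 within the experiments. It was called without VDR replicate 2 (0.79, adjusted p = 0.0122). Over all single arrays left out, its adjusted p lay between 0.0122 and 0.360. The remaining shuttle members, CRAT, a carnitine acetyltransferase, and CROT, the peroxisomal octanoyltransferase, had log2 fold changes of 0.05 (95% interval -0.28 to 0.37) and -0.03 (95% interval -0.54 to 0.48) with VitD.

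**Figure D1:**
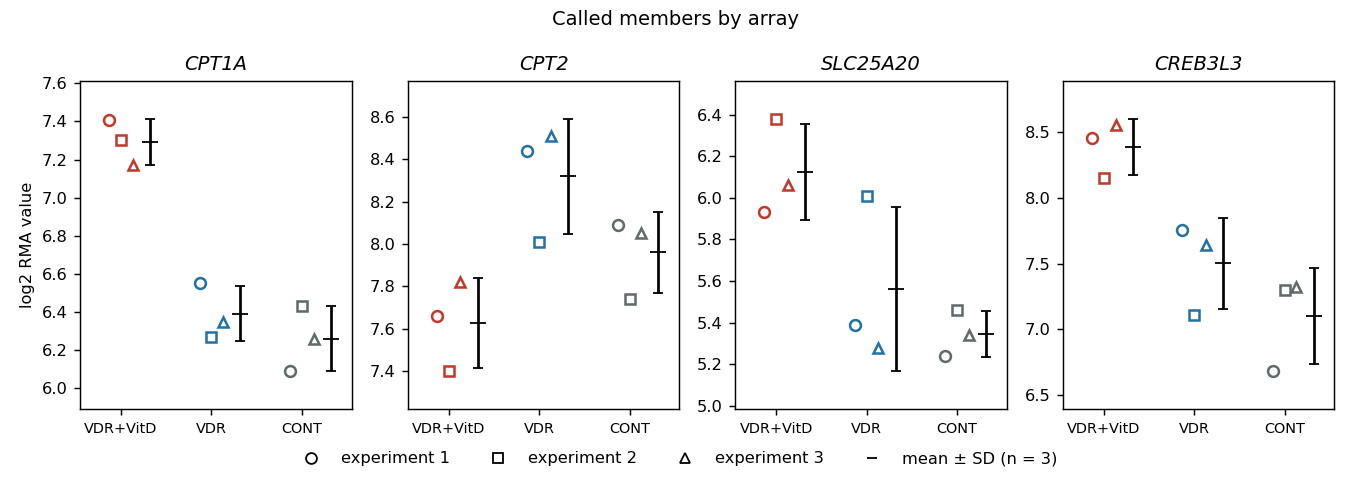
Log2 RMA values (y axis) of CPT1A, CPT2, SLC25A20 and CREB3L3 in VDR+VitD, VDR and CONT cells (x axis), with 1 symbol per array, its shape giving the experiment, and the mean with SD (n = 3) in black. The VDR+VitD arrays of CPT1A (7.17 to 7.41) and CREB3L3 (8.15 to 8.56) sit above all others, and those of CPT2 (7.40 to 7.82) below all VDR arrays.

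None of the 11 measured genes of the mitochondrial oxidation spiral was called with VitD by limma. An unadjusted p under 0.05 was found in 0 of them, against 15.1% of all genes. Their log2 fold changes lay between -0.15 (DECR1, the dienoyl-CoA reductase for unsaturated chains) and 0.31 (ACADS, the short-chain acyl-CoA dehydrogenase), with a median of -0.02, against a median of -0.02 over all genes. ACADS had 7.05, 6.52 and 7.11 in VDR+VitD cells, against 6.61, 6.49 and 6.66 in VDR cells and 6.52, 6.41 and 6.62 in CONT cells. VDR+VitD replicate 2 lay among the VDR arrays, and the difference between VDR+VitD and VDR cells did not pass the test (95% interval -0.03 to 0.64, adjusted p = 0.397). For the other 10 genes of the spiral, the 95% interval of the difference lay inside a 1.5-fold change in either direction. These were ACADVL, ACADL and ACADM, the dehydrogenases for very long, long and medium chains, HADHA and HADHB, the subunits of the trifunctional protein, HADH and ACAA2, the later dehydrogenase and thiolase, the isomerases ECI1 and ECI2, and DECR1. The standard error was largest for HADH, which had 9.14, 8.86 and 9.41 in VDR+VitD cells, against 9.35, 8.38 and 9.74 in VDR cells. Its 95% interval of -0.5845 to 0.5445 all but reached the 1.5-fold limit, which is 0.5850 in log2 units. HADHA, in contrast, averaged 13.99 ± 0.03 in VDR+VitD cells and 14.11 ± 0.03 in VDR cells (SD, n = 3 each), and its difference of -0.12 had an adjusted p of 0.759.

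The 3 genes that pass the electrons on were not called either. ETFA and ETFB, the subunits of electron transfer flavoprotein, had log2 fold changes of -0.10 and 0.05 with VitD, both with 95% intervals inside a 1.5-fold change. ETFDH, which hands the electrons to ubiquinone, had 7.64, 7.14 and 7.35 in VDR+VitD cells, against 7.80, 7.45 and 7.56 in VDR cells and 7.22, 6.88 and 7.45 in CONT cells. The 3 groups overlapped. The log2 fold change of ETFDH was -0.23 for VDR+VitD against VDR cells (adjusted p = 0.630) and 0.42 for VDR against CONT cells (adjusted p = 0.453).

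Of 4 peroxisomal members, none was called with VitD and 2 had an unadjusted p under 0.05, against 15.1% of all genes. ACAA1, the peroxisomal thiolase, had 13.69, 13.55 and 13.85 in VDR+VitD cells, against 14.07, 14.14 and 13.97 in VDR cells and 13.87, 13.87 and 13.88 in CONT cells. The VDR+VitD arrays lay below both other groups, with a difference of -0.36 from VDR cells (adjusted p = 0.145). EHHADH is a bifunctional enzyme of peroxisomes and a classical PPARA target. It had 7.82, 7.74 and 8.22 in VDR+VitD cells, against 8.64, 8.40 and 7.97 in VDR cells. In CONT cells it had 7.87, 7.42 and 7.71. The difference between VDR+VitD and VDR cells was -0.82 and -0.66 in experiments 1 and 2 but 0.25 in experiment 3 (-0.41, adjusted p = 0.316). HSD17B4 is the other bifunctional enzyme of peroxisomes. It had 13.19, 13.28 and 13.30 in VDR+VitD cells, against 13.04, 13.07 and 13.13 in VDR cells and 12.73, 12.66 and 12.87 in CONT cells. Each group lay above the next without overlap. The difference between VDR+VitD and VDR cells was 0.18 (adjusted p = 0.579), and that between VDR+VitD and CONT cells was 0.50 (SE 0.12, adjusted p = 0.0223), a 1.42-fold change and thus below the fold threshold. PEX11A, a factor of peroxisome division, had a log2 fold change of -0.06 with VitD (95% interval -0.40 to 0.27).

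**Figure D2:**
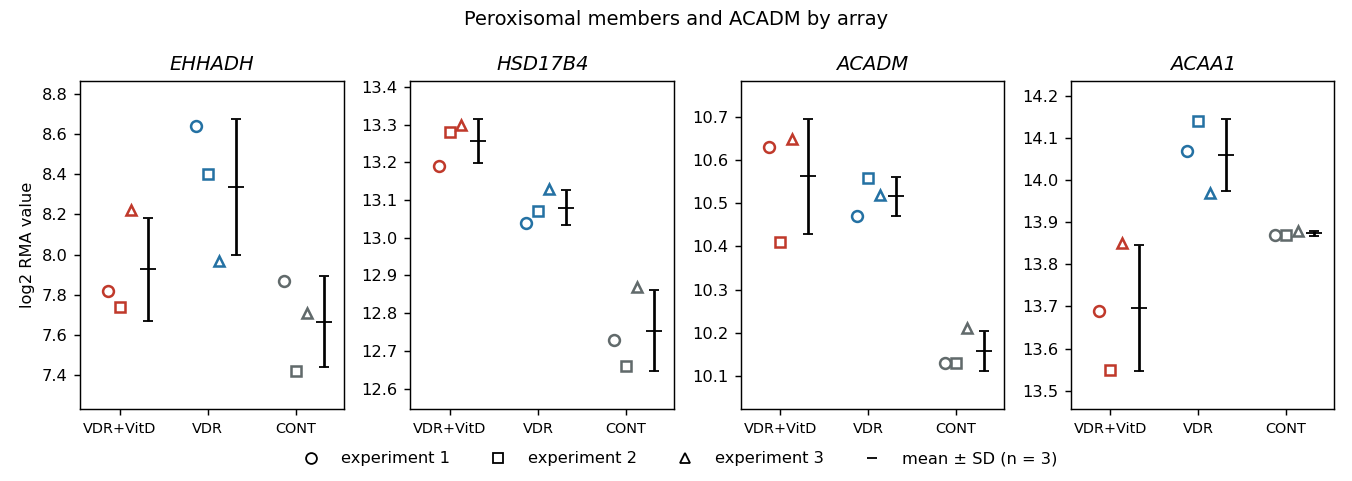
Log2 RMA values (y axis) of EHHADH, HSD17B4, ACADM and ACAA1 in VDR+VitD, VDR and CONT cells (x axis), with 1 symbol per array, its shape giving the experiment, and the mean with SD (n = 3) in black. The HSD17B4 arrays step down from VDR+VitD (13.19 to 13.30) over VDR (13.04 to 13.13) to CONT (12.66 to 12.87), and EHHADH has its highest mean in VDR cells (8.34).

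Ketone body metabolism was represented by BDH1, the 3-hydroxybutyrate dehydrogenase that interconverts both main ketone bodies. It had 5.11, 5.20 and 5.14 in VDR+VitD cells, against 5.64, 5.42 and 5.19 in VDR cells and 5.18, 5.03 and 5.28 in CONT cells. The VDR+VitD arrays lay among the CONT arrays and overlapped with those of VDR cells at VDR replicate 3. The difference between VDR+VitD and VDR cells was -0.27 (95% interval -0.57 to 0.03, adjusted p = 0.414). A further 5 measured genes of ketone body metabolism gave no call by limma in any comparison. None of them reached an unadjusted p of 0.05 with VitD, and the smallest p was that of OXCT2, a testis-type ketone transferase (log2 fold change 0.22, adjusted p = 0.632). In brightness, OXCT2 (23.4 percentile), HMGCLL1 (28.5), BDH1 (36.7) and OXCT1 (37.4) lay below BDH2 (59.6) and ACAT1 (88.7). This limits what a missing change in the dimmer genes shows.

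The acyl-CoA thioesterases, which free fatty acids from coenzyme A, gave no call. ACOT2, the mitochondrial enzyme, had 9.78, 10.11 and 10.21 in VDR+VitD cells, against 10.63, 10.63 and 10.19 in VDR cells and 10.22, 9.93 and 10.21 in CONT cells. VDR replicates 1 and 2 stood above all other arrays, and VDR replicate 3 lay among them. The log2 fold change was -0.45 for VDR+VitD against VDR cells (adjusted p = 0.166) and 0.36 for VDR against CONT cells (adjusted p = 0.506). ACOT1 is a near-identical neighbour of ACOT2, so the values of either may hold signal of the other, and its difference between VDR+VitD and VDR cells was near 0 (95% interval -0.32 to 0.32). ACOT13 (Them2), which works with the phosphatidylcholine transfer protein, had 12.24, 12.09 and 12.75 in VDR+VitD cells, against 12.41, 12.38 and 12.70 in VDR cells and 13.04, 12.53 and 12.75 in CONT cells. Its groups overlapped, and the log2 fold change was -0.14 with VitD (95% interval -0.53 to 0.25).

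Of 6 genes of the fasting and PPARA response, CREB3L3 was higher with VitD and 5 did not pass the test. CREB3L3 had log2 values of 8.46, 8.15 and 8.56 in VDR+VitD cells, against 7.76, 7.11 and 7.64 in VDR cells and 6.68, 7.30 and 7.32 in CONT cells. All VDR+VitD arrays lay above all others, while VDR and CONT arrays overlapped. It rose 1.85-fold over VDR cells (log2 fold change 0.89, SE 0.20, adjusted p = 0.0178), and by 0.70, 1.04 and 0.92 within the experiments. Leaving out VDR+VitD replicate 1 or 3, or VDR replicate 2, ended the call (adjusted p 0.0748 to 0.0874). FGF21, the fasting hormone whose gene is a known CREB3L3 and PPARA target, had 5.57, 5.28 and 5.92 in VDR+VitD cells, against 5.20, 5.21 and 5.12 in VDR cells and 5.17, 5.11 and 5.21 in CONT cells. Its VDR+VitD arrays lay above both other groups, but the steps within the experiments were 0.37, 0.07 and 0.80, and the log2 fold change of 0.41 was not called (95% interval 0.09 to 0.74, adjusted p = 0.178).

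The other genes of this response had smaller differences between VDR+VitD and VDR cells. PDK4, the kinase that shuts off pyruvate dehydrogenase in fasting and a classical PPARA target, had 3.60, 3.54 and 4.02 in VDR+VitD cells, against 3.77, 3.93 and 3.78 in VDR cells and 3.94, 4.14 and 3.57 in CONT cells. These dim values overlapped (log2 fold change -0.11, adjusted p = 0.859). CYP4A11, the fatty acid omega-hydroxylase with a near-identical neighbour in CYP4A22, lay between 2.90 and 3.45 on all arrays (log2 fold change 0.07). VNN1, a pantetheinase, averaged 3.96 ± 0.14 in VDR+VitD cells, 4.20 ± 0.16 in VDR cells and 4.32 ± 0.25 in CONT cells. FABP1, the liver fatty acid binding protein, averaged 14.90 ± 0.13, 15.12 ± 0.15 and 15.18 ± 0.09 in VDR+VitD, VDR and CONT cells (SD, n = 3 each for both genes). Neither was called (VitD adjusted p = 0.535 for VNN1 and 0.495 for FABP1).

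**Figure D3:**
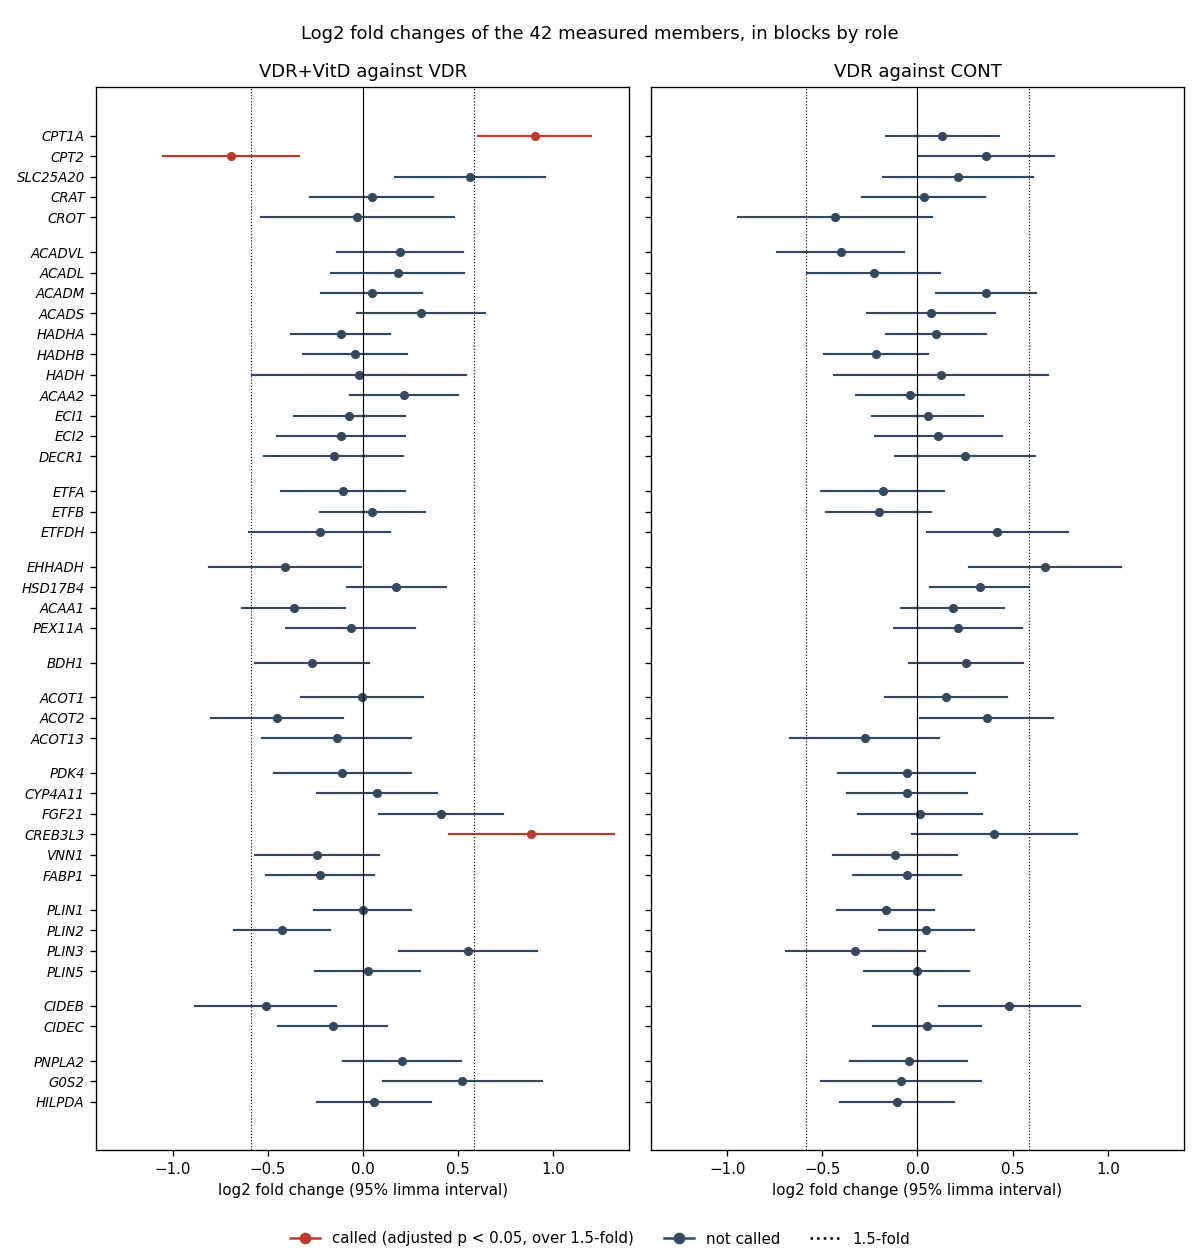
Log2 fold changes with 95% limma intervals (x axis) of the 42 measured members (y axis, in blocks by role), for VDR+VitD against VDR cells on the left and VDR against CONT cells on the right. Red marks called genes (CPT1A, CPT2 and CREB3L3, left only), the dotted lines mark a 1.5-fold change, and both panels share the 3 VDR arrays.

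None of the 9 measured droplet genes was called with VitD by limma, and 4 had an unadjusted p under 0.05, against 15.1% of all genes. PLIN2, the main droplet coat protein of hepatocytes, had 15.71, 15.67 and 15.71 in VDR+VitD cells, against 16.13, 16.18 and 16.05 in VDR cells and 16.11, 16.06 and 16.05 in CONT cells. The VDR+VitD arrays lay close together and below all 6 others. The log2 fold change was -0.42 (95% interval -0.67 to -0.17, adjusted p = 0.0552), with -0.42, -0.51 and -0.34 within the experiments. With genes below the median brightness left out its adjusted p was 0.0248 and with an intensity trend in the variance prior 6.88e-04, still below the fold threshold. With the experiment as a block the adjusted p was 0.0646, and with 1 array left out it lay between 0.0757 and 0.158. PLIN2 was at the 99.5 percentile of brightness, where array values can understate a change. The same limit applies to FABP1 (98.8 percentile), ETFB (98.7), HADHA (97.4), ACAA1 (97.2), ECI2 (95.65) and HSD17B4 (95.4).

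PLIN3, the perilipin that binds early droplets, had 11.63, 11.79 and 11.36 in VDR+VitD cells, against 11.13, 11.06 and 10.93 in VDR cells and 11.08, 11.73 and 11.29 in CONT cells. VDR+VitD arrays lay above all VDR arrays and overlapped with CONT arrays. The log2 fold change with VitD was 0.55 (95% interval 0.19 to 0.92, adjusted p = 0.0889), opposite in sign to that of PLIN2. PLIN1, the perilipin of fat cells, lay between 4.23 and 4.56 on all arrays, and PLIN5, the perilipin of oxidative tissues, between 5.76 and 6.05. Both had 95% intervals inside a 1.5-fold change in each of the 3 comparisons.

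CIDEB, the liver member of the droplet fusion proteins that also loads lipoproteins with lipid, had 11.81, 11.81 and 11.89 in VDR+VitD cells, against 12.34, 12.41 and 12.29 in VDR cells. In CONT cells it had 11.88, 11.44 and 12.27. VDR arrays lay above both other groups, and CONT arrays spread widely. The log2 fold change was -0.51 for VDR+VitD against VDR cells (adjusted p = 0.132) and 0.48 for VDR against CONT cells (adjusted p = 0.356). CIDEC, its relative from fat cells and steatotic liver, had -0.16 with VitD (95% interval -0.44 to 0.13).

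Of the lipolysis genes, PNPLA2, the first lipase of stored triglyceride, had a log2 fold change of 0.21 with VitD (95% interval -0.10 to 0.52). Both of its small inhibitors were measured. G0S2 had 7.44, 6.99 and 6.64 in VDR+VitD cells, against 6.32, 6.57 and 6.61 in VDR cells and 6.85, 6.63 and 6.28 in CONT cells. The VDR+VitD arrays lay above all VDR arrays, in experiment 3 by no more than 0.03, and the log2 fold change was 0.52 (95% interval 0.10 to 0.94, adjusted p = 0.186). HILPDA, a gene induced by hypoxia, had 6.79, 6.33 and 6.60 in VDR+VitD cells, against 6.55, 6.57 and 6.42 in VDR cells and 6.57, 6.57 and 6.73 in CONT cells. Its groups overlapped, and the difference between VDR+VitD and VDR cells was 0.06 (95% interval -0.24 to 0.36).

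**Figure D4:**
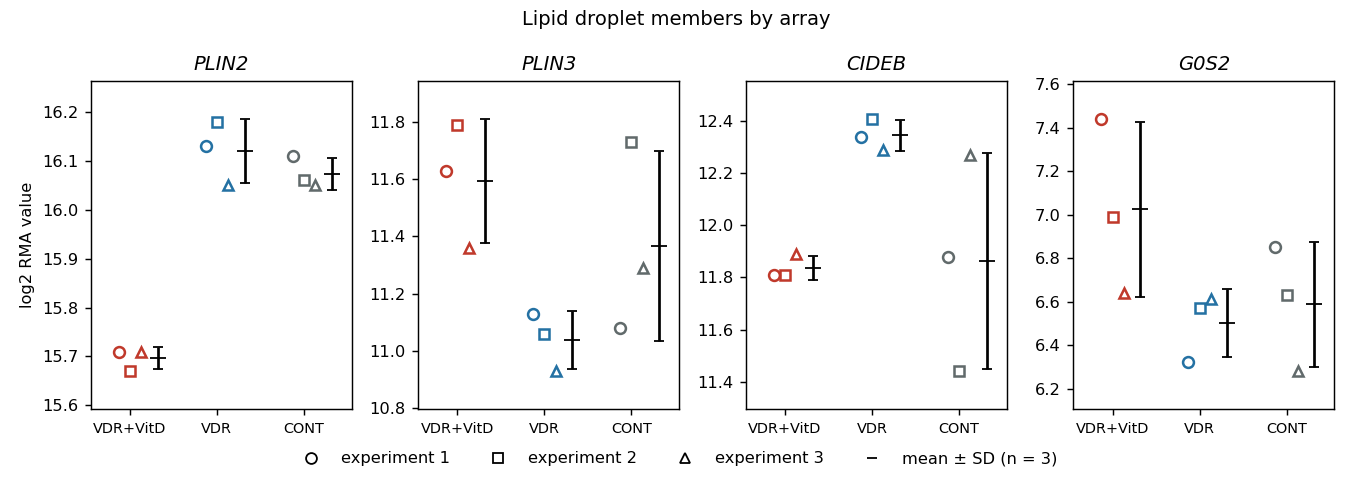
Log2 RMA values (y axis) of PLIN2, PLIN3, CIDEB and G0S2 in VDR+VitD, VDR and CONT cells (x axis), with 1 symbol per array, its shape giving the experiment, and the mean with SD (n = 3) in black. The VDR+VitD arrays of PLIN2 (15.67 to 15.71) sit below all others, and those of CIDEB (11.81 to 11.89) below all VDR arrays.

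Over all 42 members, the median log2 fold change with VitD was -0.02, with 18 above and 23 below 0, against a median of -0.02 over all genes. Unadjusted p-values under 0.05 were found in 12 members, 6 higher and 6 lower, or 28.6% against 15.1% of all genes (7.08% higher and 8.06% lower). VDR+VitD and VDR arrays did not overlap in 12 members, 7 higher and 5 lower, against 18.4% of all genes (8.66% higher and 9.70% lower), and all 3 experiments gave the same direction in 19 members, or 45.2% against 34.6%. For 28 members (66.7%), against 72.5% of all genes, the 95% interval of the difference lay inside a 1.5-fold change.

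Ad-VDR without VitD changed none of the 42 members by limma, against 0.407% of all genes called (0.102% higher and 0.305% lower), or 0.792% with the experiment as a block, which called no member either. An unadjusted p under 0.05 was found in 8 members, 7 higher and 1 lower, or 19.0% against 9.50% of all genes (4.98% higher and 4.53% lower). VDR and CONT arrays did not overlap in 8 members, 5 higher and 3 lower, against 13.1% of all genes (6.61% higher and 6.53% lower). EHHADH had the lowest p, with a log2 fold change of 0.67 for VDR against CONT cells (95% interval 0.27 to 1.07, adjusted p = 0.195) and arrays that did not overlap. ACADM, the medium-chain dehydrogenase, had 10.47, 10.56 and 10.52 in VDR cells, against 10.13, 10.13 and 10.21 in CONT cells. Its VDR arrays lay above all CONT arrays, with a difference of 0.36 (95% interval 0.10 to 0.62, adjusted p = 0.331). HSD17B4 had 0.33 (adjusted p = 0.377). ACADVL, the very-long-chain dehydrogenase, had 10.32, 10.36 and 9.79 in VDR cells, against 10.42, 10.61 and 10.65 in CONT cells, and a difference of -0.40 (adjusted p = 0.412). It was the 1 member of the 8 with a lower value, and VDR replicate 3 stood farthest from the other arrays. The lowest p values in the role groups without such a member belonged to CREB3L3 with 0.40 (adjusted p = 0.566), PLIN3 with -0.33 (adjusted p = 0.585), BDH1 with 0.25 (adjusted p = 0.616) and HILPDA with -0.11 (adjusted p = 0.871). For 27 members (64.3%), against 77.2% of all genes, the 95% interval of VDR against CONT lay inside a 1.5-fold change.

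Against CONT cells, VDR+VitD cells had 3 members called, all higher, or 7.14% against 4.81% of all genes (2.69% higher and 2.12% lower). This comparison shares arrays with each of the other comparisons. CREB3L3 was 2.45-fold higher (log2 fold change 1.29, SE 0.20, adjusted p = 9.38e-04) and CPT1A 2.05-fold higher (1.03, SE 0.14, adjusted p = 2.21e-04). SLC25A20 was 1.71-fold higher (0.78, SE 0.18, adjusted p = 0.0198), with 0.69, 0.92 and 0.72 within the experiments. Its call was lost without VDR+VitD replicate 2 or CONT replicate 1 or 3 (adjusted p between 0.0632 and 0.101). Members with an unadjusted p under 0.05 numbered 11, 8 higher and 3 lower, or 26.2% against 16.6% of all genes (7.88% higher and 8.73% lower). VDR+VitD and CONT arrays did not overlap in 12 members, 6 in each direction, against 21.7% of all genes (10.1% higher and 11.5% lower). Besides the 3 called genes and HSD17B4, the members with an unadjusted p under 0.05 were ACADM with 0.41 (adjusted p = 0.0751), PLIN2 with -0.38 (adjusted p = 0.0836), FGF21 with 0.43 (adjusted p = 0.145) and G0S2 with 0.44 (adjusted p = 0.276). ACADS had 0.38 (adjusted p = 0.232), VNN1 -0.36 (adjusted p = 0.238) and ACOT13 -0.41 (adjusted p = 0.269). For 25 members (59.5%), against 70.4% of all genes, the 95% interval of VDR+VitD against CONT lay inside a 1.5-fold change. In the role groups without a member of low p, the smallest p was that of ETFA with -0.29 (adjusted p = 0.380), CIDEC with -0.11 (adjusted p = 0.781) and BDH1 with -0.01 (adjusted p = 0.983). ETFA had 11.22, 11.58 and 11.79 in VDR+VitD cells, against 11.70, 11.95 and 11.80 in CONT cells, and CIDEC had 5.52, 5.83 and 5.85 against 5.86, 5.95 and 5.71 in the same groups. Both overlapped between the groups.

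Regulators of oxidation were read from a list chosen with earlier results of these data known, of which 12 were measured. With VitD 3 were called higher and none lower in cells with Ad-VDR, or 25% against 4.16% of all genes called. An unadjusted p under 0.05 was found in 8, 3 higher and 5 lower, against 15.1% of all genes (7.08% higher and 8.06% lower). The median log2 fold change of the 12 was -0.18. PPARD, a PPAR of many tissues, was higher by 0.86 (SE 0.17, adjusted p = 0.0065). PPARA, the main PPAR of the liver, was higher by 0.73 (SE 0.19, adjusted p = 0.0373), and PPARGC1A, the coactivator of fasting, by 0.68 (SE 0.14, adjusted p = 0.0085), all on the log2 scale. PPARA averaged 8.16 ± 0.39 in VDR+VitD cells, 7.42 ± 0.15 in VDR cells and 7.53 ± 0.26 in CONT cells (SD, n = 3 each). A block for the experiment ended its call (adjusted p = 0.0525), as did leaving out VDR+VitD replicate 3 or any VDR replicate (adjusted p between 0.0577 and 0.151), and PPARGC1A lost its call without VDR+VitD replicate 2 (adjusted p = 0.0509). The other 9 did not pass the test. The lower ones with an unadjusted p under 0.05 included PPARG, the PPAR of fat cells (-0.47, adjusted p = 0.114). They also included SIRT1, a deacetylase that acts on PPARGC1A (-0.54, adjusted p = 0.0663), SIRT3 (-0.38, adjusted p = 0.148), PRKAA1 (-0.33, adjusted p = 0.254) and KLF15 (-0.33, adjusted p = 0.243). Against CONT cells, PPARGC1A was higher by 1.02 (adjusted p = 2.65e-04) and PPARG lower (-0.85, adjusted p = 0.0028) in VDR+VitD cells. PPARA with 0.63 (adjusted p = 0.0733) and PPARD with 0.61 (adjusted p = 0.0520) were not called against CONT cells.

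Among 23 further measured genes of oxidation, AMACR was lower with VitD and 22 did not pass the test. This is 4.35% of the list, against 4.16% of all genes called. AMACR is the racemase that readies branched fatty acids and bile acid precursors for peroxisomal oxidation. Its difference was -1.22 (SE 0.20, adjusted p = 0.0013), and it averaged 8.56 ± 0.13 in VDR+VitD cells, 9.78 ± 0.48 in VDR cells and 9.59 ± 0.19 in CONT cells (SD, n = 3 each). It was lower by a similar size against CONT cells (-1.03, adjusted p = 0.0050), where ACOX2, the oxidase of branched chains, was higher (0.76, adjusted p = 0.0448). ACOX2 lost this call without any VDR+VitD replicate or CONT replicate 2 or 3 (adjusted p between 0.0641 and 0.199). ACADSB, the dehydrogenase of short branched chains, had 0.72 in VDR against CONT cells (adjusted p = 0.0511), and a block for the experiment made it a call (adjusted p = 0.0180).

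Among 16 further measured droplet genes, DGAT2, which makes triglyceride at the droplet, was higher with VitD and 15 did not pass the test. This is 6.25% of the list, against 4.16% of all genes called. The difference of DGAT2 was 0.69 (SE 0.15, adjusted p = 0.0138), a call lost without VDR+VitD replicate 3 or VDR replicate 3 (adjusted p = 0.0673 and 0.0614). Against CONT cells DGAT2 was higher by 0.67 (adjusted p = 0.0153) and LPCAT1, a lysophospholipid acyltransferase found on droplets, was lower (-0.86, adjusted p = 0.0300). LPCAT1 lost its call without VDR+VitD replicate 1 or 2 or CONT replicate 1 or 2 (adjusted p between 0.0547 and 0.121), and DGAT2 without VDR+VitD replicate 3 or CONT replicate 2 (adjusted p = 0.0690 and 0.0752).

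For VDR against CONT cells, limma called no gene of these lists, against 0.407% of all genes. An unadjusted p under 0.05 was found in 4 of 23 genes of oxidation and 0 of 5 of ketone body metabolism. It was found in 2 of 16 of droplets and 4 of 12 regulators, against 9.50% of all genes. Besides ACADSB, the smallest p in each list was that of ACAT1, a mitochondrial acetoacetyl-CoA thiolase, with 0.24 (adjusted p = 0.625), LIPA, the lysosomal acid lipase, with 0.47 (adjusted p = 0.339) and ESRRA, an orphan nuclear receptor that works with PPARGC1A, with 0.33 (adjusted p = 0.371).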

How the data were processed

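HepG2 RNA was measured on 9 Clariom S arrays, 3 each of VDR+VitD, VDR and CONT cells. The authors deposited log2 values per transcript cluster, obtained with RMA in Transcriptome Analysis Console 4.0.2 per the submitters' processing notes. RMA's quantile step hides a shift common to most genes. For the array's genome build, the sources used here name none. Of 21448 clusters, 17709 had 1 symbol and 3739 none in the annotation used, and all 17709 matched RefSeq (GRCh38.p14) by Entrez identifier. Averaging the clusters of 20 genes left 17687 genes.

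Comparisons were fitted with limma 3.58.1 in R 4.3.3, on all 9 arrays with no factor but the group, and adjusted by Benjamini-Hochberg over all genes. The paper's methods name limma and this adjustment. They also name an Entrez-based probe summary and a filter on low variation or low intensity, which the main fit did not use. At the same fold and adjusted p thresholds, the paper reports fewer genes altered by VitD than the 735 called here. The steps were also run on simulated data with independent noise on each array. Those data held no shared experiment effect, so the run did not test the pairing of the arrays. Array-specific probe signal against background is not in the table, so dimness was read from the percentile of a gene's mean value. The members and lists were chosen with earlier results of these data known. Full values are given for members called in any comparison and for the lowest p in each role group. Members with an unadjusted p under 0.05 are named, and of the other lists the called genes or the one with the lowest p.

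The experiment numbers pair the arrays, as the design text gives 3 independent experiments. After the group means were subtracted, r across genes was 0.042 to 0.145 for the 9 array pairs within an experiment, and -0.096 to 0.010 for the 18 pairs across experiments. Subtracting the group means ties both ranges together, as positive r within experiments pushes r across them downward. The second range is thus no separate evidence of pairing. The blocked fit was an alternative, since the methods name no block. Other alternatives changed the arrays in the fit, the filter, the variance prior, the fold test, the cluster choice and the scaling, and left out each replicate. The labels do not say how cultures within an experiment were separated, so p-values measure the spread between these arrays.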

Additional observations from a re-analysis of the deposited data

How the results depend on the processing

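With the experiment as a replicate block, 3, 0 and 3 members were called for VDR+VitD against VDR, VDR against CONT and VDR+VitD against CONT, as many as without it. Among the other lists, the block ended the call of PPARA and made those of ACADSB and, against CONT, APOA1. It moved the count over all genes for VDR against CONT to 140, against 72. That count was also 117 without genes below the median brightness, 141 with the 8000 most variable genes and 142 with an intensity trend. Leaving out CONT replicate 2 gave 27, VDR replicate 3 gave 35 and VDR replicate 1 gave 37. With limma's treat against a 1.5-fold change, 0 members were called for VDR+VitD against VDR (1 with an unadjusted p under 0.05) and 0 for VDR+VitD against CONT (2 such members), and over all genes 188, 11 and 207 were called for the 3 comparisons in the order above, against 735, 72 and 851. Leaving out 1 array gave between 1 and 3 called members for VDR+VitD against VDR, the lowest without VDR+VitD replicate 1 (CPT1A alone). It gave between 0 and 0 for VDR against CONT and between 2 and 3 for VDR+VitD against CONT. BDH1, near 0 for VDR+VitD against CONT (-0.01), changed sign without VDR+VitD replicate 1 (0.0067) or CONT replicate 3 (0.045), and lay between -0.08 and 0.045 over all arrays left out. Of 802 values of 55 single-gene results under an alternative, 738 kept the direction and the side of the thresholds, 49 lost the call, 13 gained it and 2 changed sign. Many of the 55 results were not calls and could not lose one, so the 738 do not measure how stable the calls were. Genes near the background, such as CYP4A11 and PDK4, may hide changes, and an effect of brightness on PLIN2 and the other bright members was not tested.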
